A study of Mus musculus with 8 samples.

Results

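Expression in 3 NIH3T3 cultures labelled PGC7 was compared with that in 1 NIH3T3 control culture, 4 of the 8 arrays of a study that also measured the B16F10 melanoma line. The 4 arrays were chosen by their titles: control, PGC7 clone 1, PGC7 clone 2, and PGC7 before cloning, which the design text describes as a mixture of clones and which is called the uncloned culture here. NIH3T3 is a fibroblast line derived from mouse embryos. All cultures grew in Dulbecco's medium with 10% fetal bovine serum, 100 U/mL penicillin and streptomycin, and 6 µg of total RNA per sample was labelled for Affymetrix 3' expression arrays. Cells that received PGC7 had been kept overnight in supernatant holding virus and polybrene. No source used here gives the vector, its promoter or whether the control received an empty virus. The 3 B16F10 PGC7 clones and the B16F10 control, grown in the same medium, were used only to test differences between the lines. The genotype label of all 6 PGC7 samples reads PGC8 and calls them pre-cloned, which is why the titles were used for grouping.

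PGC7, also called Stella and encoded by Dppa3, is a small protein of oocytes, early embryos and primordial germ cells. In the zygote it shields maternal DNA and some imprinted loci from the oxidation of methylated cytosine. When it is present in somatic cells, it can instead interfere with Uhrf1, the protein that brings the maintenance methyltransferase Dnmt1 to replicating DNA. Methylated DNA at a promoter is one of several marks that go with silence of a gene in fibroblasts. DNA methylation was not analysed here, only RNA.

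The 3 PGC7 arrays were treated as replicates (n = 3), although cultures taken from 1 infected population would not be independent. With 1 control array (n = 1), the control has no spread of its own and was assumed to vary like the PGC7 arrays. A difference common to the PGC7 cultures therefore cannot be told apart from a peculiarity of that control culture. The spread behind each p-value is only that between these cultures.

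The deposited intensities had a 2% trimmed mean of 143 to 189 in the 4 NIH3T3 arrays against 500 in each B16F10 array, and each array was multiplied to a trimmed mean of 500. All signals given are the scaled ones, in arbitrary units. Changes are differences of log2(signal + 12), PGC7 minus control, a scale that understates the change of dim probe sets. The poly-A spikes, added before labelling, read 0.22 to 0.49 log2 units lower in the PGC7 arrays than in the control, while 18S ribosomal RNA probe sets read 0.31 to 0.92 higher. The ratio of 3' to 5' beta-actin signal was 1.15 to 1.27 in the 4 arrays. Over all tested probe sets the median change was -0.06 with this scaling, -0.17 with the values as deposited, 0.01 with quantile normalization and 0.42 with the spikes as reference. All directions are thus relative to the average probe set of an array. In whole cultures, fewer cells of a type and less RNA per cell cannot be told apart.

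The transferred gene did not mark the PGC7 arrays. Dppa3, read by 1 probe set (1424295_at), had a signal of 69.8 in the control, 29.7 in clone 1, 55.4 in clone 2 and 101 in the uncloned culture, so that the control lay within the range of the PGC7 arrays. It was below the filter on low values and was not tested. The B16F10 control read 23.5, and its clones 1, 2 and 3 read 70.01, 117 and 70.99. No source used here says which part of the Dppa3 transcript the virus carried, and the probe set could not check the group labels.

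Most, but not all, fibroblast markers were bright in all 4 arrays. The 14 measured markers summed to 248998 in the control and to 191417 to 219776 in the PGC7 cultures, and the lowest signal of Vim, Fn1, Col3a1 and S100a4 in any of the 4 arrays was 24881, for Fn1 in the uncloned culture. Of the 12 tested, 0 were called higher and 4 lower, among them Col1a1 and Postn. Fap, with signals of 1.88 in the control and 8.07, 21.5 and 19.6 in PGC7, and Lum, with 262 in the control and 40.9, 15.2 and 52.5 in PGC7, did not pass the filter. The 11 melanocyte markers summed to 960 in the control and 798 to 1064 in the PGC7 cultures, and the 10 endothelial markers to 249 and 184 to 234, with 0 of the 10 passing the filter. Epithelial markers (10 genes) summed to 377 against 315 to 530, and adipocyte markers (8 genes) to 8867 against 8110 to 12113, where the lipase gene Lpl fell from 3025 to 100.5, 101 and 150.5 and the desaturase gene Scd1 had 5776 in the control and 7957, 9380 and 11898 in PGC7. The cartilage and bone markers (9 genes) summed to 6356 against 3948 to 4606, and Mgp fell. Phex rose from 61.9 to 295, 284 and 367, and Sox9 had 2032 in the control and 4008, 3520 and 3282 in PGC7. Macrophage markers (10 genes) summed to 587 against 1044 to 1232, where Cd14 rose from 131 to 520.4, 578 and 471. Cd68, Fcgr1, Mrc1 and Ptprc also read higher in every PGC7 array, but Lyz2 fell from 114 to 31.7, 38.6 and 34.97. The other macrophage markers, among them Csf1r and Itgam, lay on both sides of the control. Summed skeletal muscle markers (11 genes) were 674 against 994 to 2398, with Chrna1 at 36.8 in the control and 389.8, 397 and 1648 in PGC7 (adjusted p = 0.0561). Chrna1 made up most of the rise of this sum. Acta1, Actc1 and Myh3 also read higher in every PGC7 array, and Tnnc1 and Ckm lower. The other muscle markers, among them Myod1 and Des, lay on both sides of the control. The 9 neuronal markers summed to 299 against 384 to 522, where the synaptic gene Snap25 rose from 36.1 to 228, 165 and 246. Syp also read higher in every PGC7 array and Stmn2 lower. The other neuronal markers, among them Rbfox3 and Tubb3, lay on both sides of the control. The 8 lymphocyte markers summed to 305 against 1421 to 2812, of which the adaptor gene Fyb made up most, while its defining members did not pass the filter apart from Zap70. Zap70 had 102 in the control and 283, 662 and 388 in PGC7 and was not called. Without clone 1, the call of Snap25 (0.072) was lost (adjusted p in brackets). The part of other cell types in the results below was not tested beyond these sums.

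Of 45101 probe sets, 21931 passed the filter, a mean log2 value at or above the median of all values (signal 61.9). In limma's moderated test on the 4 arrays, 1296 (5.91%) passed an adjusted p (Benjamini-Hochberg) of 0.05 and are called here, of which 804 (3.67%) were higher in PGC7 and 492 (2.24%) lower. Represented by its brightest probe set, 713 of 10504 genes were called (6.79%), 446 higher (4.25%) and 267 lower (2.54%). The median change of all genes was -0.03. A plainer rule asked, without a test, for a 2-fold or larger difference of like sign in each PGC7 array. By it 850 probe sets were higher (3.88%) and 869 lower (3.96%), 1719 in all (7.84%), or 417 genes higher (3.97%) and 365 lower (3.47%), 782 in all (7.44%). Called genes moved far: 134 rose and 124 fell by 4-fold or more, and 11 rose and 16 fell by 32-fold or more.

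The number called turned on the uncloned culture. With clone 1, clone 2 or the uncloned culture left out, 750, 873 and 6758 probe sets were called. The share of called probe sets that were higher was 62.0% with this scaling, 42.0% with the values as deposited, 64.1% with quantile normalization and 77.8% with the spikes. Among those that met the 2-fold rule it was 49.4%, against 39.3% with the values as deposited, 60.1% with quantile normalization and 81.1% with the spikes, and against 37.7% with no filter, 38.7% with one on the control or PGC7 mean and 68.8% with one at the 75th percentile.

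Among genes called higher the median control signal was 685, the median PGC7 mean 2119 and the median log2 change 1.51. Among genes called lower these medians were 1944, 435 and -1.88. In 16 of the genes called higher the control signal lay below the 25th percentile of all signals. The 3 PGC7 cultures were about as close to each other in called genes as in all tested genes, and a small spread itself favours a call. They lay within 2-fold of one another in 411 of the 446 genes called higher (92.2%) and in 238 of the 267 called lower (89.1%), against 91.7% of all tested genes. The uncloned culture was the PGC7 array nearest to the control in 43.9% of the rises and 36.3% of the falls, and the farthest in 38.8% and 39.0%. Its median change among the genes called higher was 1.46, against 1.503 in clone 1 and 1.56 in clone 2.

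**Figure D1:**
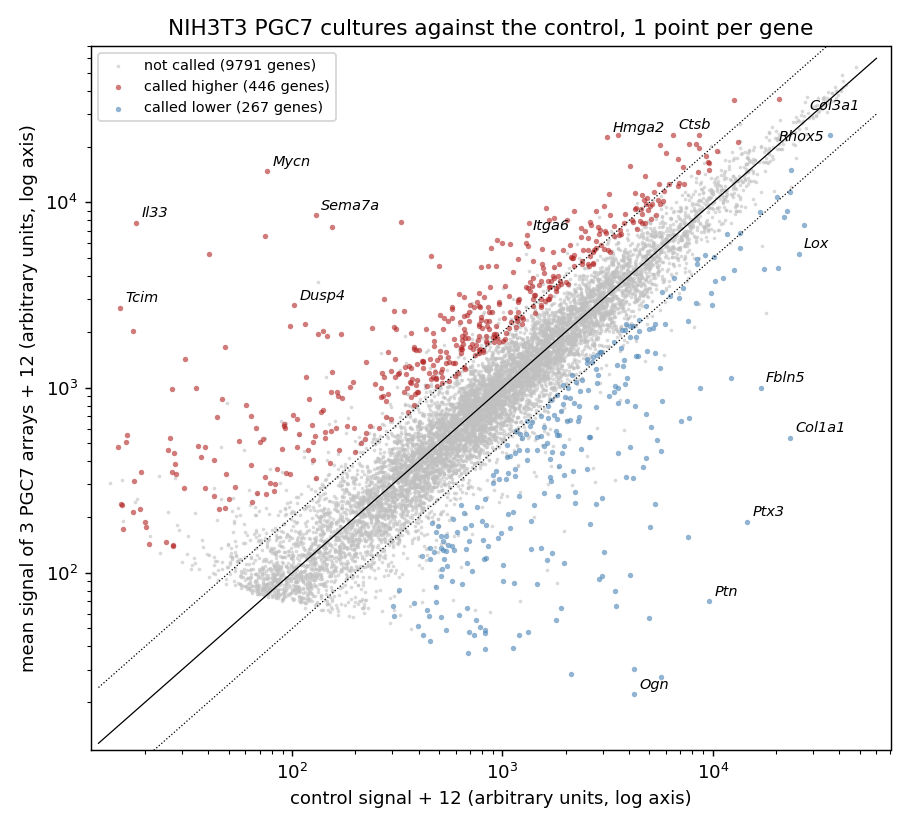
Scaled signal plus 12 of each tested gene in the control (x axis) against the mean of the 3 PGC7 arrays (y axis), in arbitrary units on log axes, with the 446 genes called higher in red and the 267 called lower in blue. The solid line marks equal signals and the dotted lines 2-fold differences, and the points farthest from it include Il33, Mycn and Tcim above and Ogn, Ptn and Col1a1 below.

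Genes nearly silent in the control led the rises. Such genes passed the filter on the mean of the 4 arrays through their PGC7 signals. Il33, encoding an alarmin cytokine that signals through the receptor ST2, had a signal of 6.13 in the control, 7330.5 in clone 1, 12574 in clone 2 and 3347 in the uncloned culture. The 3 PGC7 arrays differed among themselves, with clone 2 highest and the uncloned culture lowest, but all lay far above the control, with a log2 change of 8.55 ± 0.66 (± SE, adjusted p = 0.00337). Tcim, a small regulator of transcription, went from 3.20 in the control to 2250.2 in clone 1, 2759.8 in clone 2 and 3067 in the uncloned culture (7.46 ± 0.25), and its other probe set went from 1.95 to 1208, 1344 and 1802. Evi2a, a gene embedded in an intron of Nf1 on the opposite strand, rose from 28.4 to 4062, 3782 and 8000.2 in clone 1, clone 2 and the uncloned culture, the order used for all series of values below. Its change was 6.95 ± 0.43, and the second probe set went from 3.99 to 264, 149 and 356.

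Mycn, a transcription factor of the Myc family, rose at its brightest probe set, 1425923_at, which went from 64.04 in the control to 15482 in clone 1, 15838 in clone 2 and 12741 in the uncloned culture. The change there was 7.59 ± 0.18 (adjusted p = 0.000241), and the 3 PGC7 arrays lay close together. The 2 other probe sets annotated to Mycn did not follow. Probe set 1425922_a_at went from 102 to 121, 56.04 and 20.5 (log2 change -0.78, adjusted p = 0.61), and 1417155_at, dim in all PGC7 arrays and untested, went from 299 to 6.09, 19.7 and 5.85. The 3 probe sets thus disagreed in direction, and the rise of Mycn rests on 1 of them. Of the 30 leading genes described here and below, 18 had a further probe set on the array, and 21 of these 23 further probe sets moved in the direction of the brightest one, the exceptions being those of Mycn.

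The promoters of Il33 and Mycn are shown because these genes had the largest changes upward among genes with an entry in the promoter table. They were read from RefSeq for assembly GRCm38.p6, run from 250 bases before to 50 after the annotated start, and are written 5′ to 3′ on the gene's strand with each CG dinucleotide in capitals. Il33 lies on chromosome 19 at chr19:29924863-29925162, plus strand (the first of 2 entries), and Mycn on chromosome 12 at chr12:12941787-12942086, minus strand.
Il33: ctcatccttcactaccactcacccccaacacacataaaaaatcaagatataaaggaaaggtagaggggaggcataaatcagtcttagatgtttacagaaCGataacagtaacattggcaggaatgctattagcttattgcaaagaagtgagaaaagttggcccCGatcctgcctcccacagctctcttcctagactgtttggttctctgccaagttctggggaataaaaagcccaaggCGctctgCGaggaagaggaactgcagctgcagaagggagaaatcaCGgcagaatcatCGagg
Mycn: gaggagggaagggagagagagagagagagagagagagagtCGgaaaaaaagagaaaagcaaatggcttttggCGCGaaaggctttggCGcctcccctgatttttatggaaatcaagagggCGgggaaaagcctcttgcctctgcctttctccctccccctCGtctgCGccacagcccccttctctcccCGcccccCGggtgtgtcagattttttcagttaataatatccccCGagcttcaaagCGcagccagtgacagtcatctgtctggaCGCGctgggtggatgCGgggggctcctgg
The Il33 window holds 6 CG dinucleotides and that of Mycn 14, against a median of 22 over the 8574 tested genes with an entry.

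The next rises were in genes for enzymes and signalling proteins. Upp1, uridine phosphorylase, rose from 62.7 to 5808, 5463 and 8451 (6.43 ± 0.28). The semaphorin gene Sema7a, whose membrane-bound product acts through integrins, rose from 118 to 6173, 7965 and 11368 (5.99 ± 0.33), and Ngef, a guanine nucleotide exchange factor downstream of ephrin receptors, from 142 to 7029, 6985 and 8033 (5.57 ± 0.17). Rgs16, which speeds GTP hydrolysis by G proteins, rose from 5.51 to 704, 1055 and 4264 (6.41 ± 0.92, adjusted p = 0.0165), with the uncloned culture highest. Dusp4, a phosphatase that removes phosphate from ERK, rose from 89.9 to 2968, 2983 and 2340.3 (4.76 ± 0.22).

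The other genes of the 15 with the largest rises were Pi16, Arhgap6, Fyb, Rnf183, Glod5 and Apela, with changes between 5.32 and 4.74. Pi16, a peptidase inhibitor that marks some fibroblasts, went from 18.9 to 532, 1607 and 2111, and Arhgap6 from 14.7 to 1081, 1111 and 719.6. The adaptor gene Fyb went from 36.1 to 1957, 2009 and 971, the ubiquitin ligase gene Rnf183 from 2.92 to 381, 361 and 656 and Glod5 from 4.17 to 445, 716 and 319.6. Apela, coding for a peptide ligand of the apelin receptor, went from 4.34 to 161, 457 and 1014 (4.74 ± 0.90, adjusted p = 0.0385), a call that was lost with a pseudocount of 50, with no filter and without the intensity trend. All of these had control signals of 36.1 or less.

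The largest falls were in transcripts abundant in the control. Vip, a neuropeptide gene, had a signal of 5657 in the control, 9.85 in clone 1, 6.03 in clone 2 and 30.4 in the uncloned culture, a log2 change of -7.79 ± 0.57 (adjusted p = 0.00293). Ogn, osteoglycin, a small leucine-rich proteoglycan, went from 4209 in the control to 8.02 in clone 1, 7.96 in clone 2 and 14.2 in the uncloned culture (-7.59 ± 0.43), and its second probe set from 3312 to 0.964, 1.67 and 4.25. Mfap5, a microfibril component, fell from 4219.8 to 21.8, 14.7 and 17.8 (-7.14 ± 0.38), and Ptn, the heparin-binding growth factor pleiotrophin, from 9620.3 to 59.6, 61.5 and 53.5 (-7.10 ± 0.28). In none of these 4 genes did a PGC7 array reach a signal of 61.9, the threshold of the filter on low values.

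The promoters of Vip and Ogn are shown because these genes had the largest falls. In the same table and build, that of Vip lies at chr10:5638968-5639267 and that of Ogn at chr13:49607765-49608064, both on the plus strand, again with CG in capitals.
Vip: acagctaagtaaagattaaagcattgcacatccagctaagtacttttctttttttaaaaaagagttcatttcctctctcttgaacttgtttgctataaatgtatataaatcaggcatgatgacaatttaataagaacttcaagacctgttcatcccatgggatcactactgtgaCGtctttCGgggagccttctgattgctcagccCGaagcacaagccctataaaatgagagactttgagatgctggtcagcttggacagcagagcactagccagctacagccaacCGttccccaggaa
Ogn: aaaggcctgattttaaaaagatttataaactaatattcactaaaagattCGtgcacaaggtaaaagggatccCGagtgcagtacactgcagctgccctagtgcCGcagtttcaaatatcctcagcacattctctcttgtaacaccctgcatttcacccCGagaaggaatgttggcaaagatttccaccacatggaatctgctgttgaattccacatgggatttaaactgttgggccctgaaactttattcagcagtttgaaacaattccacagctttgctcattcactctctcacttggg
Each of these windows holds 4 CG dinucleotides. Among the 30 leading genes, 21 had an entry, with a median of 6 per window.

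Further large falls also had the bright control that their size requires, with dim PGC7 cultures. Ptx3, a secreted pentraxin of innate immunity, fell from 14547 to 229.9, 155 and 147 (-6.29 ± 0.31), and Igf2, an imprinted growth factor, from 3470.4 to 15.9, 75.5 and 70.6 (-5.89 ± 0.69). The adhesion protein gene Cd24a fell from 4952 to 71.96, 29.9 and 32.9 and the proteoglycan gene Prelp from 2107 to 3.75, 18.5 and 26.5. Among matrix genes, Thbs1 fell from 7578 to 82.1, 102 and 249 (-5.75 ± 0.57), Col1a1 from 23293 to 367, 503 and 703 (-5.49 ± 0.35), Postn from 3406 to 85.3, 60.2 and 57.4 and Mgp from 4046 to 76.9, 111 and 68.2. C1ra, a complement protease, fell from 2868 to 78.9, 122 and 40.8 (-5.06 ± 0.53) and Islr from 1787 to 37.6, 54.5 and 38.2. The related complement gene C1s1 fell from 5025 to 135, 333 and 23.8 (-5.37 ± 1.12, adjusted p = 0.0497), and its call was lost with a pseudocount of 1, with no filter and without the intensity trend.

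**Figure D2:**
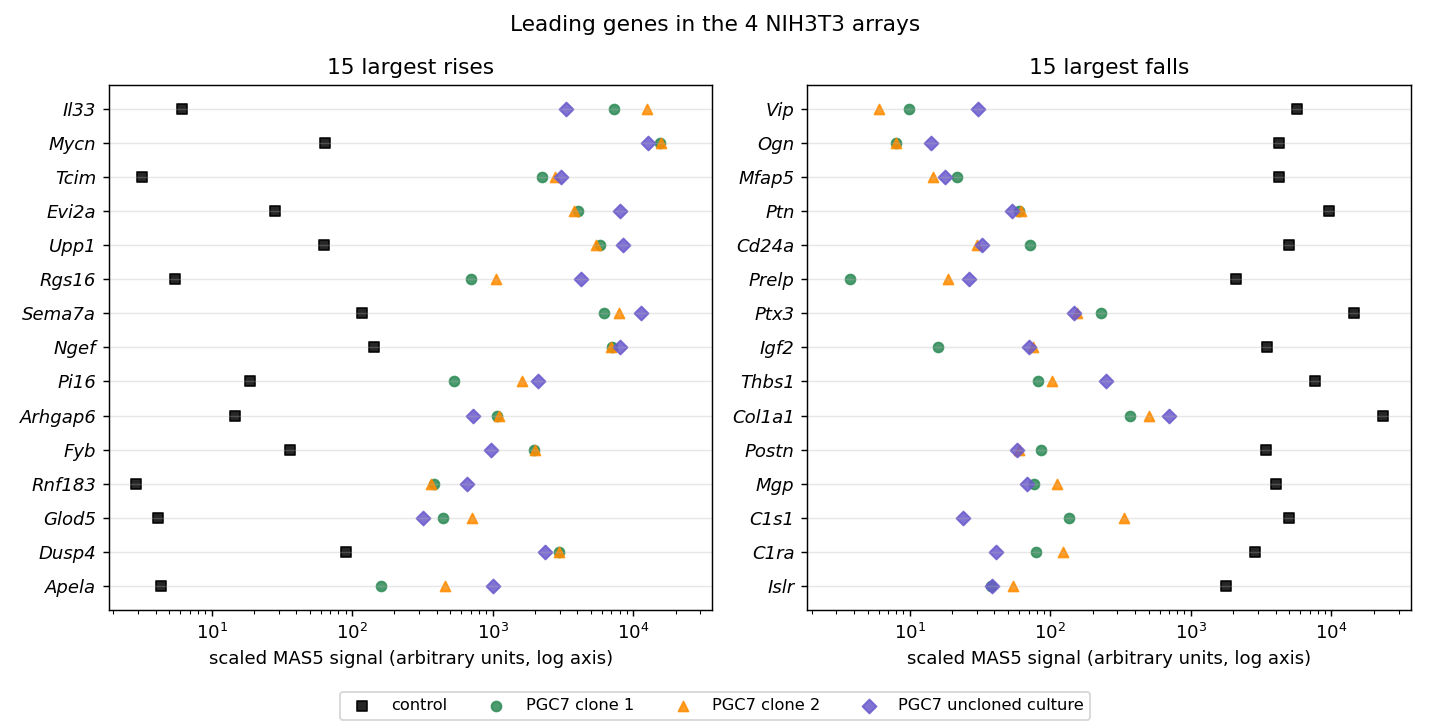
Scaled signal in arbitrary units on a log axis for the 15 genes with the largest called rise (left) and the 15 with the largest called fall (right), with 1 point for each of the 4 arrays. The control stands apart from all 3 PGC7 arrays in each gene, and the PGC7 arrays lie farthest from each other on this axis in C1s1, Prelp, Apela and Rgs16.

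Among genes bright in all 4 arrays, above the 75th percentile of signals (495), 264 were called higher and 110 lower. Hmga2, an architectural chromatin protein of embryonic cells, rose from 3144 in the control to 24432 in clone 1, 26289.5 in clone 2 and 16946 in the uncloned culture (2.81 ± 0.26, adjusted p = 0.00483). The fucosyltransferase gene Fut8 rose from 934 to 6636, 6323 and 5728 (2.72 ± 0.16), Mmd from 3547 to 22899.7, 21502 and 24515 (2.69 ± 0.14) and Tnfaip2 from 873 to 5317, 5112 and 6499. Ermp1 went from 1319 to 6627, 7287 and 9168 and Gpr137b, a lysosomal membrane protein gene, from 1604 to 10104, 10845 and 6875. The largest bright fall was Fbln5, an elastic fibre protein, from 16862 in the control to 1084 in clone 1, 978 in clone 2 and 902 in the uncloned culture (-4.08 ± 0.18). Fbln2 fell from 12168 to 1361, 1150.1 and 821, Cavin2, a coat protein of caveolae, from 8709.8 to 1164, 1097 and 697, and the lipid phosphatase gene Plpp1 from 5717 to 629, 792 and 1072. Anxa3 fell from 4779.8 to 664, 592 and 859.6 and Arhgap29 from 3909 to 625, 612 and 1258.

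On the log2(signal + 12) scale, the widest spread among the PGC7 arrays within called genes was in Rgs16, Apela, C1s1, Cdh11, Kctd4 and Prss23. Kctd4 went from 13.8 to 188, 353 and 806 (3.92 ± 0.73), highest in the uncloned culture. The protease gene Prss23 fell from 7082 to 502, 1161 and 278 (-3.66 ± 0.69), lowest in the uncloned culture. In each of the 6, all PGC7 arrays still lay on 1 side of the control.

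Gene lists are described by the number of tested members called in each direction, beside the background of 4.25% of genes higher and 2.54% lower, and by their median change, beside -0.03 for all genes. The lists were written with earlier results of these data known. Counts in brackets are those with clone 1, clone 2 and the uncloned culture left out in turn. Over all genes, 258, 283 and 1726 were then called higher and 171, 202 and 1704 lower, against 446 and 267 with no array left out. A larger last count in brackets is therefore not particular to a list.

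Several fibrillar and basement membrane collagen genes fell. Of 17 tested collagen genes 2 rose (1, 1 and 3) and 8 fell (7, 7 and 9), with a median of -0.64. Besides Col1a1, the fibril-associated Col12a1 fell from 1351 to 126, 103 and 137 (-3.35 ± 0.30), Col8a1 from 2158 to 326, 459 and 238, the basement membrane chains Col4a6 from 1566 to 281, 340.2 and 151 and Col4a5 from 4237 to 911, 823 and 628, and Col5a2, which sets fibril diameter, from 20343 to 4789.8, 4601 and 3816. Col1a2, the partner chain of Col1a1 in type I collagen, fell less, from 36063 to 23429.7, 23908 and 22298 (-0.64 ± 0.12), at its brightest probe set. The 2 other Col1a2 probe sets fell further, the brighter of them from 22619 to 7114, 8114 and 6091 (-1.68, adjusted p = 0.0082) and the dimmer from 664 to 57.8, 72.4 and 67.4 (-3.12). Col3a1, of the fibrils formed with type I collagen, had 27079 in the control and 29270.5, 31937 and 27100.3 in PGC7 and was not called (0.12 ± 0.14, adjusted p = 0.658). Both without clone 1 and without clone 2, the call of Col1a2 (0.0768 and 0.135) was lost (adjusted p in brackets).

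The enzymes that make and cross-link collagen also split. Of 15 collagen processing genes 1 rose (1, 1 and 2) and 6 fell (4, 5 and 9), with a median of -0.45 (but 0.05 with the spikes). The cross-linking lysyl oxidase gene Lox fell from 25603 to 4512, 5924 and 5412 (-2.28 ± 0.19), its relatives Loxl1 from 12545 to 3711, 4366 and 4819.6 and Loxl4 from 290.0 to 53.1, 67.8 and 41.96, and Pcolce, which helps cleave procollagen, from 17569 to 4284, 4328 and 4479. The prolyl hydroxylase gene P4ha3 fell from 533 to 123.0, 91.9 and 74.97. The exception was Plod2, a lysyl hydroxylase, which rose from 563 to 2411, 2795 and 2946 (2.24 ± 0.19). Without clone 1, the call of Loxl4 (0.0796) was lost (adjusted p in brackets).

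Proteoglycans and elastic fibre genes held some of the deepest falls. Of 5 small leucine-rich proteoglycans tested, 0 rose (0, 0 and 1) and 3 fell (3, 3 and 3), with a median of -1.85. Beside Ogn and Prelp, Bgn, biglycan, fell from 27001 to 8464, 8002 and 6209 (-1.85 ± 0.20), whereas Dcn, decorin, went from 13826 to 16483, 20066 and 18715 (0.41 ± 0.15, adjusted p = 0.182). Of 10 elastic fibre and microfibril genes 1 rose (0, 1 and 2) and 4 fell (4, 4 and 7), with a median of -0.87. They were Mfap5, Fbln5, Fbln2 and Ltbp2 among the falls, the last a latent TGF-beta binding protein going from 1958 to 141, 127 and 36.6. Its relative Ltbp4 rose from 786 to 2250.1, 2182 and 1859.8 (1.40 ± 0.19). Leaving out clone 1 alone ended the call of Ltbp4 (0.0551), with the adjusted p in brackets.

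Of 19 matricellular genes 2 rose (3, 2 and 5) and 5 fell (6, 8 and 11), with a median of -0.996. Thbs1 and Postn led the falls, and Ccn4, a Wnt-inducible matricellular protein, fell from 1613 to 100.1, 74.9 and 140.4 (-3.83 ± 0.39). Thbs3 fell from 576 to 87.8, 156 and 119.8 and the collagen-binding Sparc from 23319 to 10657, 11833 and 11502 (-1.04 ± 0.13). Tgfbi, an integrin-binding matrix protein, rose from 644 to 3310.3, 3326 and 2582 (2.22 ± 0.21), and Nid1, which links laminin to type IV collagen, from 7214 to 16137, 16035 and 14219.9. Fn1, fibronectin, had 29718 in the control and 31682, 31010.5 and 24881 in PGC7 and was not called at its brightest probe set (-0.03 ± 0.17, adjusted p = 0.93), while a dimmer probe set fell from 3129 to 1583, 1215 and 1540 (-1.12, adjusted p = 0.0401). Of 18 matrix proteases and inhibitors 1 rose (0, 0 and 7) and 5 fell (3, 4 and 5), with a median of 0.04 (but -0.08 as deposited). The aggrecan-cleaving protease gene Adamts5 fell from 4152 to 338, 333 and 267 (-3.69 ± 0.24) and Adamts1 from 11223 to 3457, 4029 and 4140.3. The inhibitor genes Timp3 and Reck fell from 2593 to 542, 644 and 396 and from 1183 to 431, 495 and 416, and the gelatinase gene Mmp2 from 6929 to 2594, 2667 and 3832. Ctsl, a lysosomal cathepsin, rose from 20598 to 39020.3, 37301 and 32809.6. Both without clone 1 and without clone 2, the calls of Mmp2 (0.093 and 0.0852) and Ctsl (0.0504 and 0.0957) were lost (adjusted p in brackets). Leaving out clone 1 alone ended the call of Reck (0.0816), with the adjusted p in brackets.

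**Figure D3:**
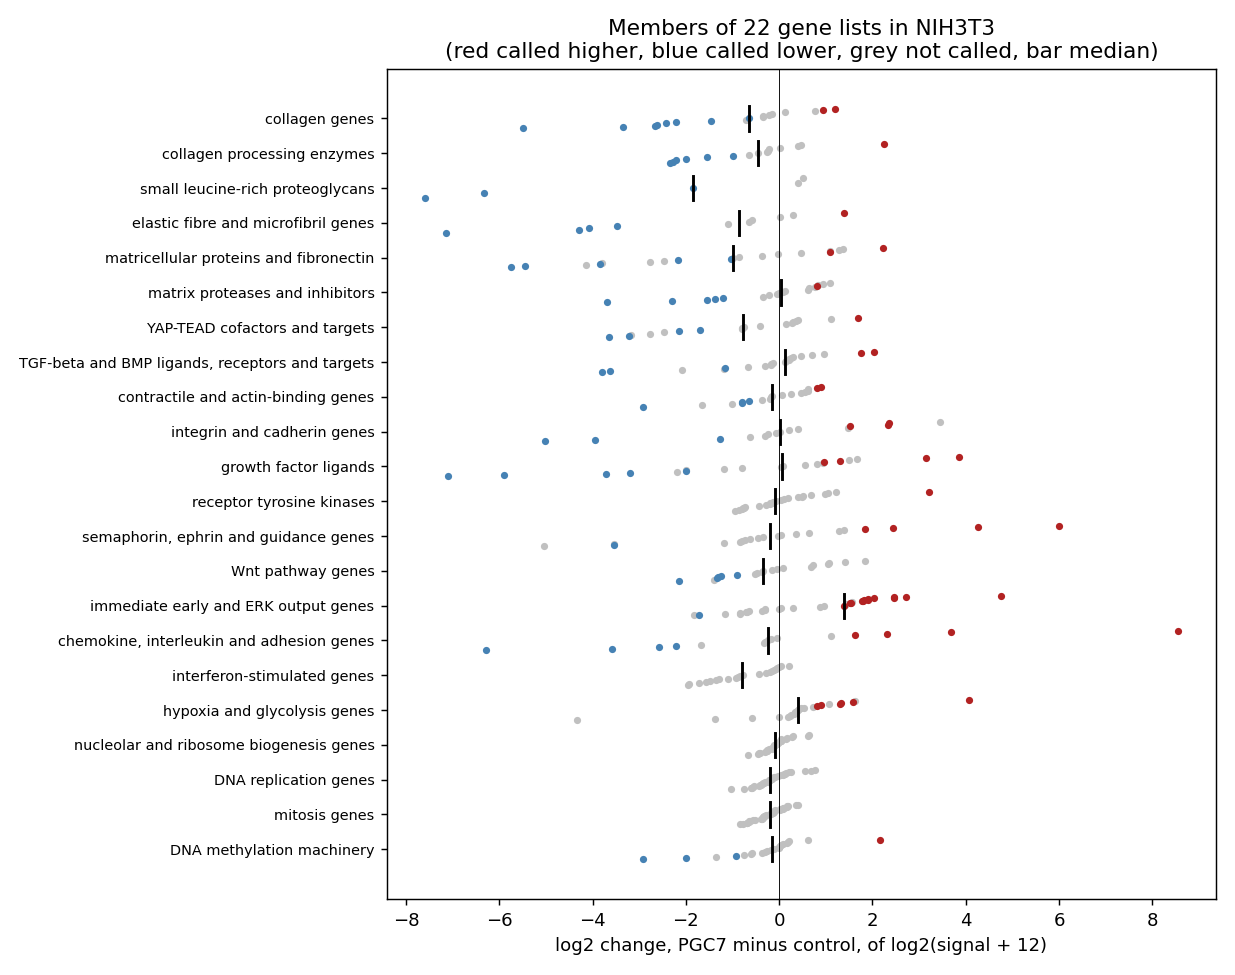
Log2 change (PGC7 minus control, of signal + 12) of each tested member of 22 gene lists, with members called higher in red, called lower in blue and uncalled in grey, and a bar at each list's median. The immediate early and ERK output genes have a median of 1.38, the collagen genes -0.64, and the ribosome biogenesis, replication and mitosis lists hold no called member.

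Genes that answer to mechanical and TGF-beta signals moved in both directions. YAP and Wwtr1, the latter also called TAZ, are cofactors of TEAD transcription factors whose targets include several matrix genes. Of 18 cofactors and targets 1 rose (1, 1 and 4) and 4 fell (4, 5 and 9), with a median of -0.77. Amotl2, a target that also binds YAP, fell from 4654 to 396, 339 and 345 (-3.65 ± 0.22), Nuak2 from 995 to 108, 124 and 64.2, Ajuba from 1913 to 359.7, 393 and 541 and Crim1 from 1572 to 482, 485 and 457. Wwtr1 itself rose from 2762 to 8741, 8805 and 9236 (1.69 ± 0.14), while Yap1 had 2587 in the control and 3371, 2891 and 3306 in PGC7 and was not called (0.30 ± 0.17, adjusted p = 0.357).

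Of 21 TGF-beta and BMP genes 2 rose (2, 2 and 4) and 3 fell (2, 2 and 6), with a median of 0.12 (but -0.01 as deposited). The ligand gene Tgfb1 rose from 542 to 2253, 2336 and 2205 (2.04 ± 0.17) and the corepressor gene Tgif1 from 1017 to 2961, 3266 and 4314. The receptor gene Tgfbr2 fell from 4454 to 1659, 1933 and 2446. The BMP-responsive genes Smad6 and Id2 fell from 737 to 49.98, 53.8 and 26.4 and from 3856 to 474, 268 and 209. Of 18 contractile and actin-binding genes 2 rose (0, 0 and 6) and 4 fell (2, 2 and 6), with a median of -0.16 (but 0.33 with the spikes). Tagln, transgelin, fell from 2525 to 237, 569 and 250.3 (-2.92 ± 0.50), and smaller falls were those of Tpm1, Zyx and Cald1 (-0.80, -0.80 and -0.66). Actn4 and Tpm4 rose by 0.81 and 0.89. The calls of Tgfbr2 (0.101 and 0.0921), Tpm1 (0.157 and 0.108), Zyx (0.103 and 0.0957), Cald1 (0.102 and 0.15), Actn4 (0.111 and 0.123) and Tpm4 (0.0575 and 0.0605) were lost without clone 1 and without clone 2, adjusted p in brackets.

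Some genes for adhesion receptors rose while others fell. Of 15 integrin and cadherin genes 3 rose (3, 4 and 5) and 3 fell (3, 3 and 4), with a median of 0.02 (but -0.08 as deposited). The fibroblast cadherin gene Cdh11 fell from 5315 to 118, 57.3 and 491 (-5.01 ± 1.00), Itgb5, the beta subunit of a vitronectin receptor, from 2589.7 to 157, 89.2 and 269 (-3.95 ± 0.54), and Pcdh19 from 4942 to 2145, 2085 and 1926. The laminin receptor subunit gene Itga6 rose from 1297 to 6144, 6707 and 7052 (2.34 ± 0.16), Itga5, of the fibronectin receptor, from 883 to 2300.5, 2663 and 2694, and Itgb7, a subunit best known from lymphocytes, from 96.2 to 728, 475 and 449. Itgb1, whose product pairs with those of Itga5 and Itga6, had 3565 in the control and 3811, 4403 and 4225 in PGC7. It was not called (0.21 ± 0.16, adjusted p = 0.477).

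Growth factor ligands moved in both directions. Of 20 ligand genes 4 rose (3, 2 and 7) and 5 fell (4, 5 and 9), with a median of 0.05 (but -0.05 as deposited). Beside Ptn and Igf2, the keratinocyte growth factor gene Fgf7 fell from 5636 to 377, 306 and 639 (-3.71 ± 0.40) and the ErbB ligand gene Nrg1 from 405 to 25.1, 34.7 and 43.2. Gdnf, a ligand of the Ret receptor complex, rose from 120.2 to 2125, 2039 and 1610.1 (3.86 ± 0.23), and Ereg, epiregulin, an EGF receptor ligand, from 489 to 3820.4, 4191 and 5539 (3.16 ± 0.24). Of 24 receptor tyrosine kinases 1 rose (1, 1 and 4) and 0 fell (0, 0 and 5), with a median of -0.09 (but 0.05 with quantile normalization and 0.39 with the spikes). The call was Mertk, a receptor for Gas6, from 104 to 702, 1015 and 1678 (3.21 ± 0.46). Of 10 IGF binding proteins and substrates 0 rose (0, 0 and 1) and 2 fell (2, 2 and 8), with a median of -0.63. These were the protease gene Pappa, which frees IGF from its binding proteins, from 1398 to 279, 227 and 156, and the adaptor gene Irs1 from 7602 to 2309, 2416 and 2101.

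Guidance genes included 2 further semaphorins that rose. Of 20 semaphorin, ephrin and guidance genes 4 rose (3, 3 and 8) and 1 fell (1, 1 and 7), with a median of -0.19 (but 0.30 with the spikes). By the 2-fold rule 4 were higher and 3 lower, and the lowest change, in an uncalled member, was -5.03. Sema5a rose from 104 to 2071, 2193 and 2335 (4.26 ± 0.19), the netrin receptor gene Unc5b from 355 to 1938, 2018 and 1955 and Sema4c from 297 to 1199, 1429 and 759. The semaphorin and VEGF co-receptor gene Nrp1 fell from 4798 to 389.5, 429 and 392 (-3.54 ± 0.20). Of 19 Wnt pathway genes 0 rose (0, 0 and 5) and 5 fell (1, 1 and 7), with a median of -0.35 (but 0.12 with the spikes). The receptor genes Fzd1, Fzd2 and Fzd4 fell from 5595 to 1072, 1180.2 and 1536, from 5193 to 1761, 2017 and 2493 and from 449 to 178, 171 and 168. The co-receptor gene Lrp6 fell from 1627 to 681, 665 and 683 and the transcription factor gene Tcf7l1 from 2511 to 1339, 1264 and 1416. Both without clone 1 and without clone 2, the calls of Sema4c (0.0813 and 0.0569), Fzd2 (0.0576 and 0.0519), Fzd4 (0.133 and 0.125), Lrp6 (0.0788 and 0.0605) and Tcf7l1 (0.154 and 0.132) were lost (adjusted p in brackets).

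Immediate early genes and outputs of the ERK kinase pathway held the most rises of the 52 lists. These genes are switched on by growth factors, and many encode phosphatases and Sprouty-type inhibitors that damp the pathway again. Of 33 tested, 13 rose (13, 13 and 19) and 1 fell (0, 1 and 6), with a median of 1.38 (1.05 as deposited, 1.36 with quantile normalization and 1.82 with the spikes). The phosphatase gene Dusp6 rose from 1069.9 in the control to 5658 in clone 1, 5592 in clone 2 and 6523 in the uncloned culture (2.45 ± 0.17, adjusted p = 0.00268), beside Dusp4. The ETS factor gene Etv4 rose from 80.3 to 563, 580.2 and 641 (2.71 ± 0.24), Phlda1 from 2168 to 9382, 7964 and 9547 and the zinc finger factor gene Egr3 from 458 to 1609.5, 1564 and 2145. Errfi1, an inhibitor of the EGF receptor, rose from 985 to 3766, 4512 and 9789.6 (2.47 ± 0.51, adjusted p = 0.0473), highest in the uncloned culture, and lost its call with no filter and without the intensity trend. Other rises, named after their values were seen, were Etv5 (1.90), Ier3 (1.82), Jun (1.80), Spred1 (1.77), Fosl1 (1.52) and Spred2 (1.38).

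Not all members of that list rose. Dusp1, named after its values were seen, fell by 1.71 on the log2 scale. Egr1 had 4174 in the control and 2607, 3195 and 1958 in PGC7 and was not called (-0.72 ± 0.28, adjusted p = 0.2), and Klf4 had 4733 in the control and 2307, 2473 and 4759 in PGC7 (adjusted p = 0.398), with the uncloned culture at the control's level.

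**Figure D4:**
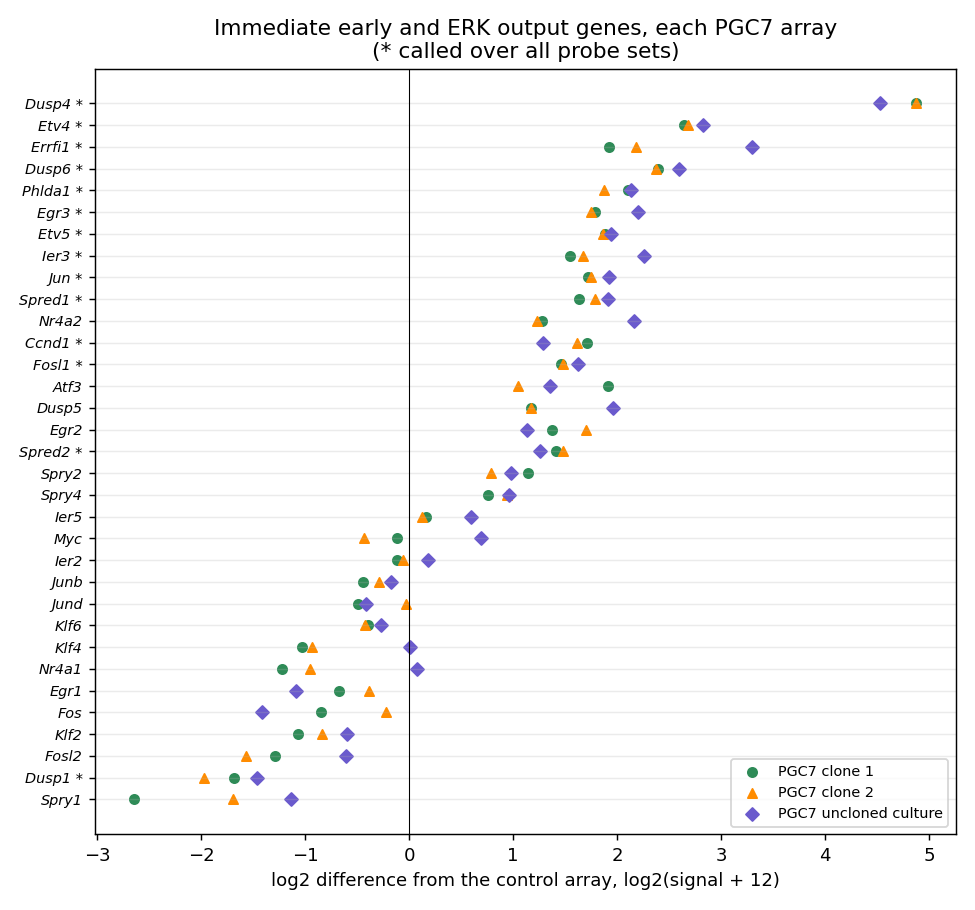
Difference of log2(signal + 12) between each PGC7 array and the control for the 33 tested immediate early and ERK output genes, ordered by mean change, with 1 symbol per array. Asterisks mark the 14 called members, of which 13 are higher in all 3 PGC7 arrays and 1, Dusp1, is lower.

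Within the cell cycle, Ccnd1, cyclin D1, rose from 4745 to 15562, 14518 and 11610.5 (1.54 ± 0.19). Of 17 CDK inhibitors and G1 cyclins 2 rose (1, 1 and 4) and 2 fell (0, 0 and 2), with a median of -0.01 (but 0.48 with the spikes). The inhibitor gene Cdkn1a rose from 4517 to 8466, 7439 and 7882, while Cdkn1b fell from 1964 to 908, 740.0 and 994 and Ccnd2 from 8397 to 5006, 4930.3 and 4787. Of 25 p53 target genes 2 rose (1, 1 and 4) and 3 fell (2, 2 and 9), with a median of -0.26 (but 0.22 with the spikes). The death receptor gene Fas fell from 815 to 19.8, 9.78 and 50.9 (-4.55 ± 0.66), the kinase gene Plk2 from 5074 to 741, 595 and 457 and Btg2 from 812 to 246, 170.0 and 300.5, while Gadd45a, a stress-inducible gene, rose from 255 to 1181, 1088 and 1301 (2.17 ± 0.21). In the Myc-Max network, 1 rose (1, 1 and 4) and 1 fell (1, 1 and 1) of 11, Mycn and the Max-binding repressor gene Mxd4, which fell from 1808 to 599.9, 546 and 472. Myc itself had 1705 in the control and 1576, 1254 and 2759 in PGC7 and was not called (0.05 ± 0.42, adjusted p = 0.963). Of 10 regulators of G protein signalling 2 rose (2, 2 and 2) and 0 fell (0, 0 and 4), Rgs16 and Rgs20, the latter from 647 to 2119.8, 2093 and 1929.8. By the 2-fold rule 2 were higher and 2 lower, and the lowest change, in an uncalled member, was -3.25. Leaving out clone 1 or clone 2 ended the calls of Cdkn1a (0.116 and 0.086), Cdkn1b (0.112 and 0.0938), Ccnd2 (0.11 and 0.115) and Btg2 (0.0824 and 0.0612), with the adjusted p in brackets.

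Lists of growth and housekeeping functions held few or no calls in limma's test. Over all 10504 genes an unadjusted p under 0.05 was met by 2502, and with all 8 arrays 945 were called higher and 828 lower. Of 30 ribosome biogenesis genes, which include many Myc targets, 0 were called (at an unadjusted p under 0.05, 1 higher and 1 lower; 0 and 1 called with all 8 arrays, 2 and 3 without the uncloned culture). Their median was -0.10 (but 0.39 with the spikes), and Npm1, the brightest, had 25865 in the control and 24317, 20259 and 20510.4 in PGC7. Of 33 DNA replication genes 0 were called (2 higher and 6 lower; 2 and 4 called with all 8 arrays, 3 and 8 without the uncloned culture), with Pcna at 14038 in the control and 16939.7, 16808 and 12938 in PGC7. Of 35 mitosis genes 0 were called (1 higher and 7 lower; 1 and 6 called with all 8 arrays, 2 and 10 without the uncloned culture). The same held for 20 endoplasmic reticulum chaperones (1 higher and 0 lower; 1 and 0 called with all 8 arrays, 2 and 3 without the uncloned culture), 25 cholesterol and fatty acid synthesis genes (5 higher and 1 lower; 3 and 0 called with all 8 arrays, 6 and 6 without the uncloned culture) and 15 heat shock genes (4 higher and 0 lower; 2 and 0 called with all 8 arrays, 5 and 0 without the uncloned culture). Of 33 subunits of oxidative phosphorylation 0 were called as well (3 higher and 3 lower; 3 and 3 called with all 8 arrays, 6 and 3 without the uncloned culture). Of 16 housekeeping genes 1 rose (0, 0 and 4) and 0 fell (0, 0 and 1), the adaptor gene Ywhaz by 0.77, with a dimmer probe set at -0.01 (adjusted p = 0.988). The call of Ywhaz (0.102 and 0.133) was lost without clone 1 and without clone 2, adjusted p in brackets.

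Inflammatory genes changed in both directions. Of 15 chemokine, interleukin and adhesion genes 4 rose (4, 4 and 5) and 4 fell (2, 4 and 6), with a median of -0.24 (but 0.25 with the spikes). Beside Il33, the chemokine gene Ccl8 rose from 129 to 1624, 3273 and 1108 (3.69 ± 0.55) and Lif, a cytokine of the interleukin-6 family, from 37.8 to 182, 237 and 297. Beside Ptx3, the leukocyte adhesion receptor gene Vcam1 fell from 2967 to 207, 203 and 317 (-3.58 ± 0.32) and Il15 from 470.3 to 61.5, 51.3 and 103. Of 22 interferon-stimulated genes, each at its brightest probe set, 0 were called by limma on these arrays, with a median of -0.80. An unadjusted p under 0.05 was reached by 0 higher and 8 lower, and 6 met the 2-fold rule, all lower. The bright Ifi35 had 1342 in the control and 631, 735 and 742 in PGC7 (-0.93 ± 0.21, adjusted p = 0.0626), and its second probe set was called lower, from 800.2 to 142, 218 and 206 (-2.04, adjusted p = 0.0233). Without the uncloned culture 11 of the 22 were called lower, against 1704 of all genes. With all 8 arrays in the fit it was 7, against 828 of the 10504 genes. Of 14 antigen presentation genes 0 rose (0, 0 and 2) and 1 fell (1, 1 and 4), the class Ib gene H2-M3, from 783 to 132, 222 and 180.2, while B2m, the invariant chain of class I molecules, had 14500.2 in the control and 15441, 17735 and 15279.7 in PGC7 (adjusted p = 0.579). Without clone 1, the call of Il15 (0.0534) was lost (adjusted p in brackets).

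Hypoxia and glycolysis genes were higher where they were called. Of 25 tested, 6 rose (5, 3 and 18) and 0 fell (1, 1 and 2), with a median of 0.41. By the 2-fold rule 5 were higher and 2 lower, and the lowest change, in an uncalled member, was -4.34. Ankrd37 rose from 7.18 to 207, 258 and 551 (4.07 ± 0.57), the mitophagy receptor gene Bnip3 from 1533 to 4471, 4909 and 4575, the glucose transporter gene Slc2a1 from 2538 to 6619, 6579 and 5927 and the angiogenic factor gene Vegfa from 631 to 1345, 1716 and 1732. Ero1a, an oxidase of the endoplasmic reticulum, rose by 0.90 and the glycolytic enzyme gene Aldoa by 0.81. Of 26 integrated stress response genes 0 rose (0, 0 and 1) and 1 fell (1, 1 and 14), the amino acid transporter gene Slc7a5, from 2037 to 995, 859.6 and 1077. Of 19 Nrf2 targets 2 rose (0, 0 and 7) and 0 fell (0, 1 and 6), with a median of 0.08 (but -0.05 as deposited), Srxn1 and Gsr, by 1.05 and 0.92. Of 26 lysosome genes 3 rose (2, 2 and 12) and 0 fell (0, 0 and 1), with a median of 0.33. They were Gpnmb, a glycoprotein of lysosomes and melanosomes, from 22.9 to 656, 1575 and 708 (4.71 ± 0.51), the cathepsin gene Ctsb from 6427 to 24226, 24465 and 20974 (1.85 ± 0.14) and Ctsl. Leaving out clone 1 or clone 2 ended the calls of Ero1a (0.145 and 0.123), Aldoa (0.0553 and 0.0938), Slc7a5 (0.127 and 0.109), Srxn1 (0.0656 and 0.0735) and Gsr (0.159 and 0.154), with the adjusted p in brackets. Without clone 2, the call of Vegfa (0.0669) was lost (adjusted p in brackets).

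In the list for the machinery of DNA methylation 18.2% of tested genes were called, against 6.79% of all genes. The called members were the 3 Gadd45 genes and Hells, and no tested Dnmt, Uhrf, Tet or Mbd gene was called. Of 22 tested genes 1 rose (1, 1 and 2) and 3 fell (2, 1 and 4), with a median of -0.15 (but 0.34 with the spikes). All 3 Gadd45 genes, whose products have been linked to DNA demethylation and stress signalling, were called, in unlike directions: Gadd45a rose, while Gadd45b fell from 1361 to 185, 106 and 242 (-2.92 ± 0.45) and Gadd45g from 538 to 153, 138 and 96.1. Hells, a chromatin remodeller needed for DNA methylation at repeats, fell from 2815 to 1431, 1387 and 1661 (-0.91 ± 0.19), with a second probe set at 465 in the control and 627, 543 and 393 in PGC7 (0.14, adjusted p = 0.838). The maintenance methyltransferase gene Dnmt1 had 2803 in the control and 2843, 2558 and 2392 in PGC7 and was not called (-0.11 ± 0.17, adjusted p = 0.75). Uhrf1 was tested and was not called either. Of 35 histone deacetylase and Polycomb genes 3 rose (1, 1 and 7) and 1 fell (0, 0 and 6), with a median of -0.10 (but 0.04 with quantile normalization and 0.38 with the spikes). Hdac7 fell from 1569 to 542, 594 and 660.3, and Hdac5, Rnf2 and Phc2 rose by 1.41, 1.02 and 0.79. Both without clone 1 and without clone 2, the calls of Hells (0.164 and 0.135), Hdac7 (0.0747 and 0.0543), Rnf2 (0.0728 and 0.0608) and Phc2 (0.135 and 0.132) were lost (adjusted p in brackets). Without clone 2, the call of Gadd45g (0.0502) was lost (adjusted p in brackets).

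A few imprinted genes changed strongly, while the calls among germ cell genes were fewer and smaller. Whether PGC7 acted on either class was not tested. Of 14 imprinted genes tested 2 rose (2, 2 and 4) and 2 fell (2, 2 and 6), with a median of -0.33 (but 0.17 with the spikes). The potassium channel gene Kcnq1 rose from 14.2 to 499, 585 and 485 (4.35 ± 0.28) and Slc22a18, a transporter gene of the same imprinted cluster, from 14.7 to 289.7, 398 and 331 (3.71 ± 0.33), both with a control near the 25th percentile of signals. Peg3 fell from 1688 to 319, 385 and 197 (-2.49 ± 0.39), beside Igf2. The bright imprinted gene Dlk1 had 27704 in the control and 26827, 26176 and 16825 in PGC7 and was not called (adjusted p = 0.592). Of 44 germline and pluripotency genes 41 were on the array but 8 passed the filter, and 2 rose (1, 1 and 4) and 0 fell (0, 0 and 2). These were Brdt, a testis bromodomain protein, from 253 to 884, 932 and 813 (1.74 ± 0.21), and Tdrd7, of germ granules, from 995 to 1764, 1791 and 1761. The X-linked homeobox gene Rhox5, often active in cell lines, was among the brightest genes in the control already, with 19260.4 in the control and 20977, 21889.9 and 17197 in PGC7 (adjusted p = 0.899). Dppa2 had 33.9 in the control and 889.8, 489 and 16.6 in PGC7, high in both clones and low in the uncloned culture, and was not called (adjusted p = 0.485). The call of Tdrd7 (0.189 and 0.157) was lost without clone 1 and without clone 2, adjusted p in brackets.

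Of 10 Hox genes 0 rose (0, 0 and 0) and 1 fell (0, 1 and 4), Hoxa3, from 562 to 122, 100.2 and 163. Of 14 factors of epithelial-mesenchymal transition and intermediate filaments 3 rose (2, 2 and 4) and 2 fell (1, 1 and 4), with a median of 0.07 (but -0.03 as deposited). The forkhead gene Foxc2 rose from 759.9 to 2299.6, 2009 and 2136, Twist2 from 2773 to 6507, 5667 and 6347 and Zeb1 by 0.90, while the homeobox gene Prrx2 fell from 4389.6 to 1772, 1401 and 1223 and Snai2 by 0.86 on the log2 scale. Vim, vimentin, had 41055 in the control and 53452, 49989 and 43186 in PGC7 (adjusted p = 0.381). Of 18 genes listed as metastasis suppressors 1 rose (0, 0 and 4) and 4 fell (4, 3 and 7), with a median of -0.19 (but 0.30 with the spikes). The kinase anchoring protein gene Akap12 fell from 1447 to 53.8, 86.5 and 84.9 (-4.09 ± 0.37), the translation inhibitor gene Pdcd4 from 3421 to 1065, 889 and 1085 and Cav1, caveolin 1, from 21725 to 6976, 7256 and 10803, beside Timp3. Cd44, the hyaluronan receptor, rose by 0.92. Both without clone 1 and without clone 2, the calls of Zeb1 (0.127 and 0.1), Snai2 (0.0757 and 0.104) and Cd44 (0.0559 and 0.0583) were lost (adjusted p in brackets). Leaving out clone 1 alone ended the call of Hoxa3 (0.0606), with the adjusted p in brackets. Without clone 2, the call of Cav1 (0.0513) was lost (adjusted p in brackets).

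Called genes lay on all chromosomes looked at, in unlike shares. These ran from 4.84% of the genes of chromosome 5 to 8.92% of those of chromosome 1. Over all genes 6.79% were called, 4.25% higher and 2.54% lower. No run of 4 or more neighbouring measured genes met the 2-fold rule in 1 direction. Chromosome 11 had the highest median change, 0.22, with 51 genes called higher and 10 lower of 881 (6.92% called). Its medians in the 3 PGC7 arrays were 0.22, 0.22 and 0.21. Chromosome 6 had a median of -0.26, with 14 higher and 30 lower of 513 (8.58% called), and again the arrays were close (-0.26, -0.24 and -0.25). The X chromosome had the lowest median, -0.41, with 8 higher and 12 lower of 319 (6.27% called). There the uncloned culture stood apart, at -0.76 against -0.23 in each clone.

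**Figure D5:**
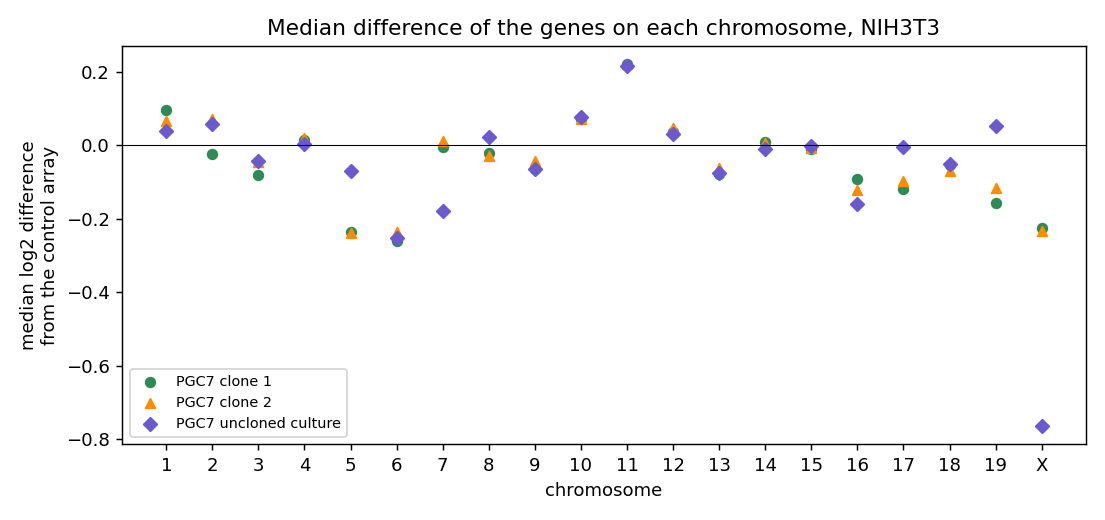
Median difference of log2(signal + 12) between each PGC7 array and the control over the tested genes of each chromosome. Chromosome 11 lies above the others in all 3 arrays, and on the X chromosome the uncloned culture lies at -0.76 and the clones at -0.23.

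Promoters were compared by their letters, as a description. Of the 446 genes called higher 349 had an entry, and of the 267 called lower 197, using the first entry of each gene. The median number of CG dinucleotides in the 300 bases was 21 and 18, against 22 in all 8574 tested genes with an entry. Windows with under 5 CG made up 8.88% of the rises, 14.2% of the falls and 5.76% of all. The E-box CACGTG, which Myc proteins can bind and which itself holds a CG, was in 10.6%, 8.12% and 10.5% on either strand. The TEAD-type motif GGAATG was in 13.5%, 16.2% and 11.7%, and the AP-1 motif TGACTCA in 3.44%, 3.55% and 3.39%. Of the 4 windows printed above, those of Il33 and Ogn hold GGAATG.

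The changes in NIH3T3 were set against those in B16F10, which has a control array of its own. In a model with all 8 arrays, 290 of 25271 probe sets were called in B16F10 (1.15%), 225 higher (0.89%) and 65 lower (0.257%). This model shares its spread between the lines, although the B16F10 arrays vary less among themselves than the NIH3T3 PGC7 arrays. The shared spread can thus be too small for NIH3T3 and too large for B16F10, which bears on every adjusted p from this model. Of the 804 probe sets called higher in NIH3T3, 28 were called higher in B16F10 too (3.48%) and 11 lower, and of the 492 called lower, 4 were called lower (0.813%) and 9 higher. Set against the 0.89% higher and 0.257% lower over all probe sets, calls of unlike as well as of like direction made up larger shares. The probe sets called the same way in both include those of Jun, Wwtr1, Bnip3, Vegfa and Ero1a among the rises and Sparc among the falls, named here after their values were seen. The rise of Wwtr1 still differed between the lines, 1.69 in NIH3T3 against 0.58 in B16F10 (limma's test of the difference, adjusted p = 0.0059). The fall of Sparc was -1.04 in NIH3T3 and -1.17 in B16F10, where it went from 12620.1 in the control to 5587, 5609 and 5626 in the clones.

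The change itself differed between the lines for 484 of the 804 probe sets called higher in NIH3T3 (60.2%) and for 335 of the 492 called lower (68.1%), against 1788 of all 25271 (7.08%). These probe sets were selected on the NIH3T3 change, which is 1 term of the difference, so a share above that of all probe sets follows in part from the selection. The last count was 771, 1001 and 806 without B16F10 clones 1, 2 and 3, 4507 without the uncloned NIH3T3 culture, 1122 as deposited and 9525 with the spikes. The 20 leading genes tested, the 10 largest rises and 10 largest falls, all differed, with adjusted p from 0.000116 for Mycn to 0.0232 for Pi16. The 10 falling genes read 33.8 or less in the B16F10 control, below the filter on low values, so that no fall of like size could have been measured there. Signals of the 20 were low in B16F10 whether or not PGC7 had been transferred. Il33, for instance, read 8.64 in the B16F10 control and 14.7, 6.32 and 19.7 in the clones, and Col1a1 read 8.33 and 2.26, 1.68 and 8.49. Mycn in B16F10 went from 19.08 to 29.8, 40.0 and 47.4, and Rgs16, the brightest of the 20 in the B16F10 control, from 79.8 to 91.3, 119 and 96.5. Changes of the 20 genes in B16F10 lay between -0.81 and 0.70, and none was called there.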

How the data were processed

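The authors deposited an intensity for each probe set, not log-transformed, and the submitters' processing notes name MAS5. No source used here gives its version or settings, or hybridization dates. Each array was scaled to a 2% trimmed mean of 500 and log2(signal + 12) was taken, 12 being the 25th percentile of scaled values, rounded. Of 45101 probe sets, 34958 had 1 symbol in the platform annotation, 932 several and 9211 none, and 34754 matched RefSeq (GRCm38.p6) by gene identifier.

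Tests used R 4.3.3 and limma 3.58.1 (lmFit, eBayes with an intensity trend, two-sided) and were tested on simulated data. The fit held the 4 NIH3T3 arrays, and a model with 4 group means over 8 arrays gave differences between lines. Members and 52 gene lists (1272 entries, 856 tested) were chosen with earlier results of these data known. Named genes were Dppa3, the 15 largest called rises and falls, 8 bright rises and falls, the 6 with the widest spread and, per list, up to 6 called and 3 bright uncalled members. Alternatives changed the scaling, pseudocount, filter, variance prior, samples in the fit and each PGC7 array.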

Additional observations from a re-analysis of the deposited data

Results flagged for a closer look

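The change that went with PGC7 differed between NIH3T3 and B16F10 for 1788 of 25271 probe sets in limma's test of the difference itself, adjusted over all of them. The 20 genes that led the changes in NIH3T3 were looked up in this test and all passed it. For the 10 largest rises, the log2 change in NIH3T3 exceeded that in B16F10 by 8.27 for Il33, 6.89 for Mycn, 6.91 for Tcim, 7.61 for Evi2a, 6.41 for Upp1, 6.10 for Rgs16, 5.83 for Sema7a, 5.84 for Ngef, 5.10 for Pi16 and 4.86 for Arhgap6. For the 10 largest falls the difference, NIH3T3 minus B16F10, was -7.85 for Vip, -6.78 for Ogn, -7.38 for Mfap5, -7.21 for Ptn, -6.19 for Cd24a, -5.81 for Prelp, -6.69 for Ptx3, -6.52 for Igf2, -5.22 for Thbs1 and -5.13 for Col1a1. The genes had been chosen for their change in NIH3T3, which is 1 term of the difference. All 10 falling genes read between 1.51 and 33.8 in the B16F10 control, below the filter on low values, so their difference was largely fixed by the fall in NIH3T3. Also, each line has 1 control array, and the spread shared by both lines can be too small for NIH3T3. The part of line, array batch and the control cultures in these differences cannot be told apart.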

How the results depend on the processing

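The number of probe sets called in NIH3T3 was 1296 and ran from 1228 to 1476 over the other scalings. It was 703 with no filter on low values, 612 without the intensity trend and 3279 with all 8 arrays in the fit, and 750 to 6758 with 1 PGC7 array left out. The number at least 2-fold in all 3 arrays was 1719, against 3381 with no filter and 693 with a filter at the 75th percentile. The number differing between lines was 1788, against 1122 as deposited, 9525 with the spikes, 996 without the intensity trend and 771 to 4507 with 1 PGC7 array of either line left out. The cause of these moves was not tested. All 166 called genes open to naming kept their direction wherever they were tested, and 145, 165 and 117 also kept their call as deposited, with quantile normalization and with the spikes, 111 with no filter and 101 without the trend. Since these genes were picked for being called, a kept direction was likely. Uncalled genes changed sign as deposited (Col3a1 -0.012, Myc -0.079, Rhox5 -0.081), with quantile normalization (Rhox5 -0.00707) and with the spikes (Dlk1 0.21, Dnmt1 0.38, Fn1 0.46, Npm1 0.24). With 1 PGC7 array left out, the change ran from -0.097 to 0.077 for Fn1, from -0.28 to 0.29 for Myc and from -0.020 to 0.15 for Rhox5. No paired analysis was possible because the single control carries no clone number. Dim probe sets limit the size of folds, and the number of arrays limits precision.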
